A study of Homo sapiens with 4 samples.

Results

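Semaphorins, ephrins and Slits are ligands that steer the movement of cells and growth cones, and plexins, Eph receptors and Robo receptors are the transmembrane proteins that read them. Their genes were matched by symbol, and 58 symbols on 59 rows of the 57815 rows of the gene table were found. EFNA3 stood on 2 rows, of which the second carried the read-through gene that joins EFNA4 and EFNA3. The 58 genes comprised 7 class 3 semaphorins, 13 semaphorins of classes 4 to 7, 9 plexins, 5 ephrin-A and 3 ephrin-B genes, 9 EphA and 5 EphB receptors, 3 Slits and 4 Robos.

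RNA-Seq of 2 human cell lines was analysed, both of them untreated and grown in DMEM with fetal bovine serum. The parental MDA-MB-231 line comes from a triple-negative breast cancer, and LM2-4175 was isolated from it and colonizes the lung. Each was sequenced as 2 libraries, 4 in all, but the deposited table holds 1 pooled value per gene and cell line, and no test between replicates could be run. Each group is 1 cell line, so that what separates lung-metastatic cells from their parent cannot be told apart from what separates any pair of sublines.

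The values are FPKM, fragments scaled by transcript length and by library depth, which can be set side by side for different genes. How depth was normalized between libraries was not given in the sources used here. The authors' table adds a lower and an upper bound to each FPKM, printed here in brackets, and the sources do not state whether these cover the spread between libraries. The log2 change printed for a gene is that of FPKM + 1 (LM2-4175 over MDA-MB-231), on which genes with low values appear to change less than they do. A gene was tested where its mean FPKM was at least 0.5 and the table's status was OK in both cell lines, and it was called higher or lower where the change reached 1.5-fold and the bounds of the cell lines did not overlap. The table does not give the number of fragments behind each value. For the 40 members tested, the upper bound lay a median of 39.4% above the FPKM in MDA-MB-231 and 42.1% in LM2-4175, beside 38.6% and 38.1% for all 13911 genes tested.

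Semaphorins signal through plexins, and the secreted class 3 proteins mostly need a neuropilin as co-receptor. Ephrins are bound to the membrane, by a lipid anchor in the A class and by a transmembrane stretch in the B class, so that they meet Eph receptor tyrosine kinases on a touching cell and both cells can receive a signal. Slits are large secreted proteins that repel growth cones and many migrating cells through Robo receptors. In breast epithelium these systems are known for guiding duct growth and keeping cell layers apart, and in tumours for their part in vessel growth and cell migration.

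Of the 40 members tested, 8 were called, 7 higher and 1 lower in LM2-4175. That is 20.0% of them, against 9.27% of all genes tested. By direction, 17.5% of the members were called higher, against 4.67% of all genes, and 2.5% lower, against 4.61%. The members higher were ROBO1, ROBO4, ROBO3, SEMA7A, SEMA4B, SLIT2 and SEMA6B, and the member lower was SEMA3B. The median log2 change of the 40 members was 0.04, and that of all genes tested was -0.04. On the fold alone, without the bounds, 15 members or 37.5% passed, 9 higher and 6 lower, against 22.1% of all genes tested. No plexin, ephrin or Eph receptor was among the 8. With each difference set against a standard error taken from the bounds, in place of separate bounds, PLXND1, EPHB4, SEMA4D and SEMA5A were lower as well, which made 5 of 40, against 7.84% of all genes tested under that rule. The values are of whole cultures, in which a change in a share of the cells and a change in the level per cell cannot be told apart.

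**Figure D1:**
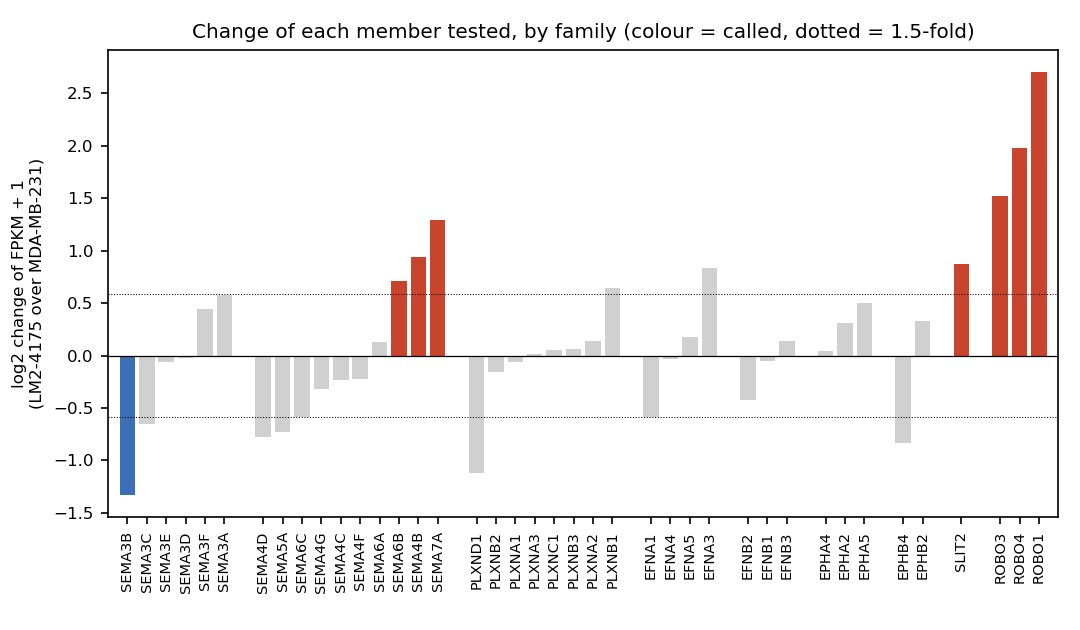
Log2 change of FPKM + 1 (LM2-4175 over MDA-MB-231, vertical axis) for each of the 40 members tested, grouped by family, with dotted lines at 1.5-fold. Coloured bars are the 8 members called, and all 3 Robo receptors tested and the only Slit tested stand at the right end with changes from 0.87 to 2.71.

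The Slit and Robo genes were the families in which each member tested was called, 4 of 4, all of them higher in LM2-4175. Of all genes tested, 9.27% were called in either direction and 4.67% higher. The other 3 of the 7 Slit and Robo genes lay under the filter. The start regions of the 4 genes called are shown because all were called in the same direction. Whether they are controlled together was not tested. Each is the RefSeq promoter on GRCh38.p14 that lies furthest upstream in its gene, from 250 bases before the start to 50 after it, read 5′ to 3′ on the gene's strand, and capitals mark each GC box (GGGCGG on either strand). The FPKM of a gene sums all its transcripts, so it does not say which start was used, and RefSeq lists 2 starts for ROBO1 and 3 for ROBO3.
ROBO1, chr3:79767949-79768248, minus strand: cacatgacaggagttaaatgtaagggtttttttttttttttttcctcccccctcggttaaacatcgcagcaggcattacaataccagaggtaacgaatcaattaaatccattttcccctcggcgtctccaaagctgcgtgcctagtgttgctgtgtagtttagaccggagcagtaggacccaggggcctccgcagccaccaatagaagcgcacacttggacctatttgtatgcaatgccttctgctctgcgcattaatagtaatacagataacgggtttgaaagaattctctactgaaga
ROBO3, chr11:124865182-124865481, plus strand: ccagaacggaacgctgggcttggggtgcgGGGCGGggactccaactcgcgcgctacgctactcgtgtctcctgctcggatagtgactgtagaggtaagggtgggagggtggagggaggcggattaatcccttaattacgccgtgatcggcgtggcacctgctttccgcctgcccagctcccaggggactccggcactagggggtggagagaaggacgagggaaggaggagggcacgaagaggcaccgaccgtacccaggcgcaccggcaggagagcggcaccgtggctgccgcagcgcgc
ROBO4, chr11:124897816-124898115, minus strand: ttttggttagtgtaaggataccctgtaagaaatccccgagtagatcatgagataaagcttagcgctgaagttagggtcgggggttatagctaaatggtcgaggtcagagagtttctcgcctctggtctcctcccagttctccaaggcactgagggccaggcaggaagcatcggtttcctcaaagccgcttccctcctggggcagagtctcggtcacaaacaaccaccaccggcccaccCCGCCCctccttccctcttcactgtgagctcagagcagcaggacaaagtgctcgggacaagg
SLIT2, chr4:20251655-20251954, plus strand: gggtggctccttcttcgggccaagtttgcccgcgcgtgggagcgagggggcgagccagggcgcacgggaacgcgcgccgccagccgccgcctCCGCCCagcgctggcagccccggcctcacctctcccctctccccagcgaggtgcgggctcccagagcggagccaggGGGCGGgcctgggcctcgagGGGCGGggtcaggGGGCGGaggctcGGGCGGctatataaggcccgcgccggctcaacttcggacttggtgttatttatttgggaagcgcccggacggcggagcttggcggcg
The SLIT2 window held 5 GC boxes, those of ROBO3 and ROBO4 held 1 each, and that of ROBO1 held none. At the starts not printed, the windows of ROBO3 held 1 and 4, and that of ROBO1 held none. Of the 35116 RefSeq promoters in the same table, 45.0% held at least 1. GC content was 74.3% in SLIT2, 66.7% in ROBO3, 55.3% in ROBO4 and 45.3% in ROBO1, beside a median of 58.7% over all promoters. An AP-1 motif (TGANTCA), an AP-2 motif (GCCNNNGGC) and a TATA box (TATAAA) were looked for on both strands as well. None of these exact letters were found in the 4 windows, and they occur in 7.71%, 23.2% and 11.5% of all promoters. The SLIT2 window does hold the similar stretch tatataag right after its last GC box. The search for TATAAA does not count that stretch, so it does not show that SLIT2 lacks a TATA box. These matches describe the letters and do not show that a factor binds.

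SLIT2 encodes the secreted ligand. It was measured at 5.48 FPKM in MDA-MB-231 (bounds 3.95 to 7.01) and at 10.8 FPKM in LM2-4175 (8.12 to 13.5), a log2 change of 0.87 and a ratio of FPKM of 1.98. The bounds stayed apart, and the change of FPKM + 1 passed a fold of 1.5 but not of 2. It made up at least 99.9% of the summed FPKM of the 3 Slit genes in each cell line. SLIT1 was listed at 0.00265 and 0.000173 FPKM in MDA-MB-231 and LM2-4175, and SLIT3 at 0.00209 and 0.00217 FPKM.

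ROBO1, the receptor through which Slit2 is best known to repel migrating cells, had the largest change of the 40 members tested. It was at 1.30 FPKM in MDA-MB-231 (bounds 0.746 to 1.86) and at 14.1 FPKM in LM2-4175 (7.97 to 20.2). This was a log2 change of 2.71, at 10.8 times the FPKM. ROBO1 moved from above 13.1% of all genes tested in MDA-MB-231 to above 55.3% of them in LM2-4175. In MDA-MB-231 it stood at 0.238 times the FPKM of SLIT2, with bounds apart, and in LM2-4175 at 1.30 times, with bounds that overlapped.

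ROBO4 codes for a shorter receptor known mainly from the endothelium of blood vessels, where it stabilizes the vessel wall. It was at 14.2 FPKM in MDA-MB-231 (bounds 8.85 to 19.5) and at 58.96 FPKM in LM2-4175 (37.3 to 80.6), with a log2 change of 1.98 and 4.16 times the FPKM. Its LM2-4175 value lay above 87.4% of the genes tested and was the highest of the Robo genes. Defining genes of endothelium were near 0 in both cell lines: of the 5 on the list, the 4 that matched the table (CDH5, VWF, TEK and CLDN5) summed to 0.133 FPKM in MDA-MB-231 and 0.198 in LM2-4175, with none above 0.0857.

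ROBO3, whose product in the nervous system sets when commissural axons cross the midline, was at 14.3 FPKM in MDA-MB-231 (bounds 9.27 to 19.3) and at 42.9 FPKM in LM2-4175 (29.2 to 56.6). The log2 change was 1.52 and the ratio 3.004. ROBO3 and ROBO4 had almost the same FPKM in MDA-MB-231 (ratio of ROBO4 to ROBO3 0.993), and in LM2-4175 the ratio was 1.38 with bounds that overlapped, so their order there is not set beyond the bounds. ROBO2, at 0.00683 and 0.167 FPKM, was not tested.

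Summed over the 4 genes, the Robo level was 29.8 FPKM in the parental cells and 116 FPKM in LM2-4175, a ratio of 3.90. Summed Slit FPKM was 5.49 and 10.8, and these RNA sums do not show which of the Robo receptors bind Slit. ROBO3 gave the largest share of the Robo sum in MDA-MB-231 (48.0%), and ROBO4 did in LM2-4175 (50.8%).

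**Figure D2:**
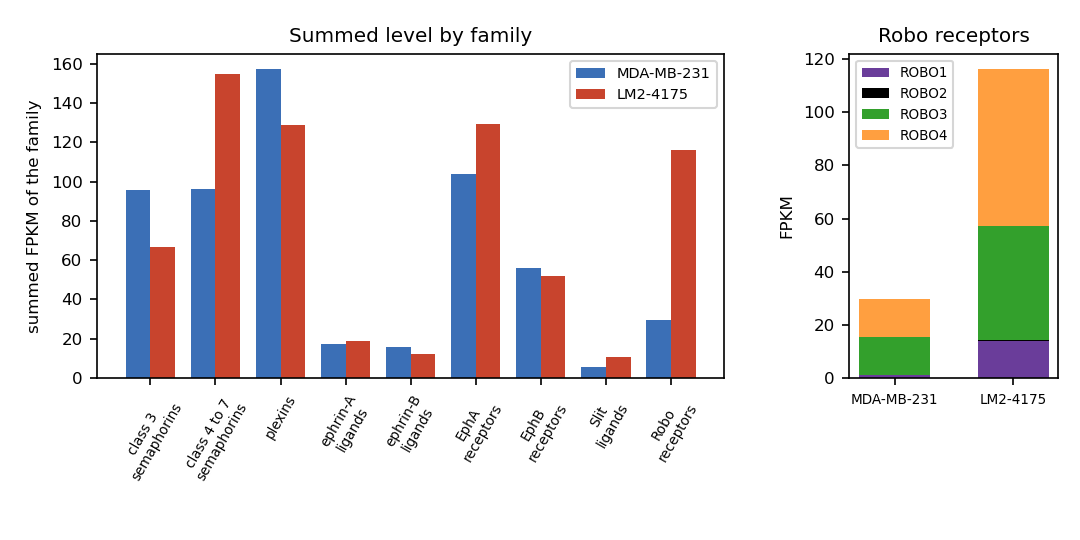
Left, summed FPKM (vertical axis) of each of the 9 families in MDA-MB-231 (blue) and LM2-4175 (red). Right, the 4 Robo receptors stacked, in FPKM, with sums of 29.8 and 116, and ROBO2 too low to see.

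On GRCh37, ROBO3 lies on chromosome 11 from 124735328 to 124751367 on the plus strand and ROBO4 from 124753587 to 124768396 on the minus strand, so that the genes run towards each other with 2219 bases between their ends. The libraries were made with a TruSeq kit that does not mark strand, so reads of transcripts that overlap on opposite strands cannot be told apart. Of the exon bases of ROBO4, 18% overlap 2 non-coding genes on the other strand, which were listed at no more than 0.00706 FPKM in either cell line, and no exon base of ROBO3 overlaps another gene. ROBO1 spans 78646389 to 79817148 on chromosome 3 (minus strand) and SLIT2 spans 20253528 to 20622184 on chromosome 4 (plus strand), with no exon overlap for either.

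Within 1 Mb of the start of ROBO3 lay 13 further protein-coding genes that were tested, of which 5 had a higher value and 8 a lower value in LM2-4175, with a median log2 change of -0.12. Those called were ROBO4 and SLC37A2, both higher, the latter with a log2 change of 1.76 at 0.198 Mb. Within 3 Mb of ROBO3 lay 30 such genes, 9 with a higher and 21 with a lower value. Of these, 3 were called higher, among them CLMP at 2.13, and 3 lower. Among all genes tested, 45.5% had a higher value in LM2-4175, 4.67% were called higher and 4.61% lower. No other protein-coding gene tested lay within 1 Mb of ROBO1, and the only one within 3 Mb had a log2 change of -0.20. SLIT2 had 1 such neighbour within 1 Mb, at 0.18, and 8 within 3 Mb, of which 3 had higher and 5 lower values. The protein-coding genes tested around ROBO1 and SLIT2 were thus few, and the changes of ROBO1 and SLIT2 lay above theirs.

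Of 13 Robo transducers listed, the genes that carry the Robo signal inward, 12 were tested and 1 was called, beside 9.27% of all genes tested. That gene was SRGAP1, which codes for a GTPase-activating protein that binds the tail of Robo1 and turns Cdc42 off. SRGAP1 was at 2.85 FPKM in MDA-MB-231 (bounds 1.98 to 3.72) and at 8.33 FPKM in LM2-4175 (4.72 to 11.9), a log2 change of 1.28. CDC42 itself was at 239 and 171 FPKM and RAC1 at 298 and 268 FPKM in MDA-MB-231 and LM2-4175, with overlapping bounds. EVL, a relative of the Enabled protein that links Robo to actin, passed the fold with 6.33 FPKM in MDA-MB-231 (3.68 to 8.97) against 11.9 FPKM in LM2-4175 (7.14 to 16.6), but its bounds overlapped. The median of the 12 genes was -0.07.

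GPC1 codes for glypican-1, a heparan sulphate proteoglycan that binds Slit2. It was called lower, with 27.4 FPKM in MDA-MB-231 (18.6 to 36.3) against 9.02 FPKM in LM2-4175 (5.61 to 12.4), a log2 change of -1.50. GPC1 moved opposite to SLIT2 and the 3 Robo genes called.

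Among the membrane-bound semaphorins of classes 4 to 7, 3 of the 10 tested were called, all of them higher in LM2-4175. Of all genes tested, 9.27% were called in either direction and 4.67% higher. SEMA7A, the semaphorin with a GPI anchor, which signals through integrin beta-1 and plexin C1, had the largest change of the 16 semaphorins tested in that direction. It was at 26.6 FPKM in MDA-MB-231 (bounds 18.1 to 35.02) and at 66.4 FPKM in LM2-4175 (45.3 to 87.5), with a log2 change of 1.29 and 2.50 times the FPKM. SEMA7A was the highest semaphorin in LM2-4175, where it stood at 2.15 times SEMA3C with bounds apart. In MDA-MB-231 SEMA3C was the highest and SEMA7A stood at 0.539 times its FPKM, with bounds that overlapped by a narrow margin. Of its receptors, ITGB1 was at 667 and 759 FPKM, and ITGA1 at 6.80 FPKM (0 to 18.6) and 23.4 FPKM (0 to 55.3) in MDA-MB-231 and LM2-4175, neither of them called. PLXNC1 was at 1.60 FPKM in MDA-MB-231 (0.516 to 2.69) against 1.69 FPKM in LM2-4175 (0.473 to 2.91), a log2 change of 0.05, and was not called.

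SEMA4B, a transmembrane semaphorin with a PDZ-binding tail, was at 18.02 FPKM in MDA-MB-231 (bounds 12.9 to 23.1) and at 35.5 FPKM in LM2-4175 (25.6 to 45.4). Its log2 change was 0.94. SEMA6B, a transmembrane ligand of class A plexins, was at 17.2 FPKM in MDA-MB-231 (bounds 12.8 to 21.6) and at 28.8 FPKM in LM2-4175 (21.7 to 35.9), a log2 change of 0.71. Of the 8 members called, SEMA6B had the bounds closest to each other, with an upper bound of 21.6 in MDA-MB-231 and a lower bound of 21.7 in LM2-4175. Both genes passed a fold of 1.5 but not of 2.

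SEMA4D, which binds plexin B1 and is shed as an attractant of endothelial cells, had a value that was lower in LM2-4175. It was at 13.4 FPKM in MDA-MB-231 (bounds 9.27 to 17.6) and at 7.42 FPKM in LM2-4175 (4.52 to 10.3). The log2 change of -0.78 passed the fold, but the bounds overlapped and it was not called. SEMA5A, with thrombospondin repeats outside the cell, was at 0.949 FPKM in MDA-MB-231 (0.333 to 1.57) against 0.177 FPKM in LM2-4175 (0 to 0.390) and was not called either, with a log2 change of -0.73. The other 5 members of these classes that were tested had overlapping bounds. SEMA4C, a ligand of plexin B2, was at 10.2 FPKM in MDA-MB-231 (7.31 to 13.02) against 8.49 FPKM in LM2-4175 (5.82 to 11.2), a log2 change of -0.23. SEMA4F was at 6.37 FPKM in MDA-MB-231 (3.90 to 8.84) against 5.29 FPKM in LM2-4175 (3.09 to 7.49) (-0.23 on the log2 scale) and SEMA4G at 1.53 FPKM in MDA-MB-231 (0 to 3.26) against 1.03 FPKM in LM2-4175 (0 to 2.77) (-0.32). SEMA6A, a ligand of class A plexins, was at 0.50 FPKM in MDA-MB-231 (0 to 1.12) against 0.640 FPKM in LM2-4175 (0.136 to 1.14) (0.13), and SEMA6C at 1.32 FPKM in MDA-MB-231 (0.789 to 1.84) against 0.547 FPKM in LM2-4175 (0.217 to 0.876) (-0.58). All were low or moderate in level, under the 3 members called. Of the exon bases of SEMA4G, 28% overlap MRPL43 or a non-coding gene on the other strand.

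The summed FPKM of classes 4 to 7 was 96.4 in the parental cells and 155 in LM2-4175, a ratio of 1.61, and SEMA7A made up 27.6% and 42.9% of these sums. The median log2 change of the 10 genes tested was -0.23, so most of them had a lower value in LM2-4175 while the 3 highest in level were higher.

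The class 3 semaphorins summed to 95.6 FPKM in MDA-MB-231 and 66.8 in LM2-4175, a ratio of 0.699. SEMA3B, which maps to a stretch of chromosome 3 often lost in lung and breast tumours and is known to hold back tumour cell growth, was the only member called lower. It was at 27.9 FPKM in MDA-MB-231 (bounds 19.6 to 36.2) and at 10.5 FPKM in LM2-4175 (6.80 to 14.1), a log2 change of -1.33 and a ratio of 0.375. SEMA3C, known in tumours for promoting migration, was the highest of the class in both cell lines. It was at 49.3 FPKM in MDA-MB-231 (bounds 33.5 to 65.1) and at 30.9 FPKM in LM2-4175 (20.7 to 41.1), past the fold at -0.66, with bounds that overlapped. SEMA3B stood second in MDA-MB-231, apart from SEMA3A by its bounds, and after SEMA3A in LM2-4175, where its bounds overlapped those of SEMA3A and SEMA3F.

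SEMA3A, the first repellent known of the class, was at 8.86 FPKM in MDA-MB-231 (bounds 4.03 to 13.7) and at 13.7 FPKM in LM2-4175 (0 to 31.1), and SEMA3F at 5.56 FPKM in MDA-MB-231 (bounds 0 to 12.1) and at 7.91 FPKM in LM2-4175 (0.0178 to 15.8). Their log2 changes were 0.58 and 0.44, the lower bound of each reached 0 in at least 1 cell line, and neither was called. SEMA3D was at 1.87 FPKM in MDA-MB-231 (1.07 to 2.66) against 1.82 FPKM in LM2-4175 (1.01 to 2.63) (-0.02 on the log2 scale, and 0.04 after scaling to the same sum), and SEMA3E, the ligand of plexin D1, at 1.69 FPKM in MDA-MB-231 (0.527 to 2.85) against 1.58 FPKM in LM2-4175 (0.818 to 2.33) (-0.06).

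SEMA3B and SEMA3F lie side by side on chromosome 3, SEMA3F from 50192478 to 50226508 and SEMA3B from 50304990 to 50314977, both on the plus strand with 78481 bases between them. The value of SEMA3F was higher in LM2-4175 and that of SEMA3B lower. Of the 37 coding genes tested in the 1 Mb around SEMA3B, 22 had a higher and 15 a lower value. Over all genes tested, 45.5% had a higher value. None of the 37 was called and their median log2 change was 0.10. SEMA3B stood apart in direction from that median.

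For SEMA4B the genes around it moved with it. Each of the 25 coding genes tested in the 1 Mb around its start on chromosome 15 had a higher value in LM2-4175, 9 of them called, with a median log2 change of 0.97 beside the 0.94 of SEMA4B. Within 3 Mb it was 36 of 36, 11 of them called, with a median of 0.89. Of all genes tested, 45.5% had a higher value in LM2-4175 and 4.67% were called higher. For SEMA7A, which lies 15977536 bases away on the same chromosome, 22 of 24 genes within 1 Mb had a higher value, 4 of them called, with a median of 0.40 beside the 1.29 of SEMA7A. SEMA6B on chromosome 19 had 27 such neighbours, 14 with a higher and 13 with a lower value, 1 called higher, and a median of 0.06. Within 3 Mb of SEMA6B lay 110, of which 69 had a higher value and 6 were called, all higher, with a median of 0.09. Whether these members and the genes around them changed for a shared reason was not tested.

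**Figure D3:**
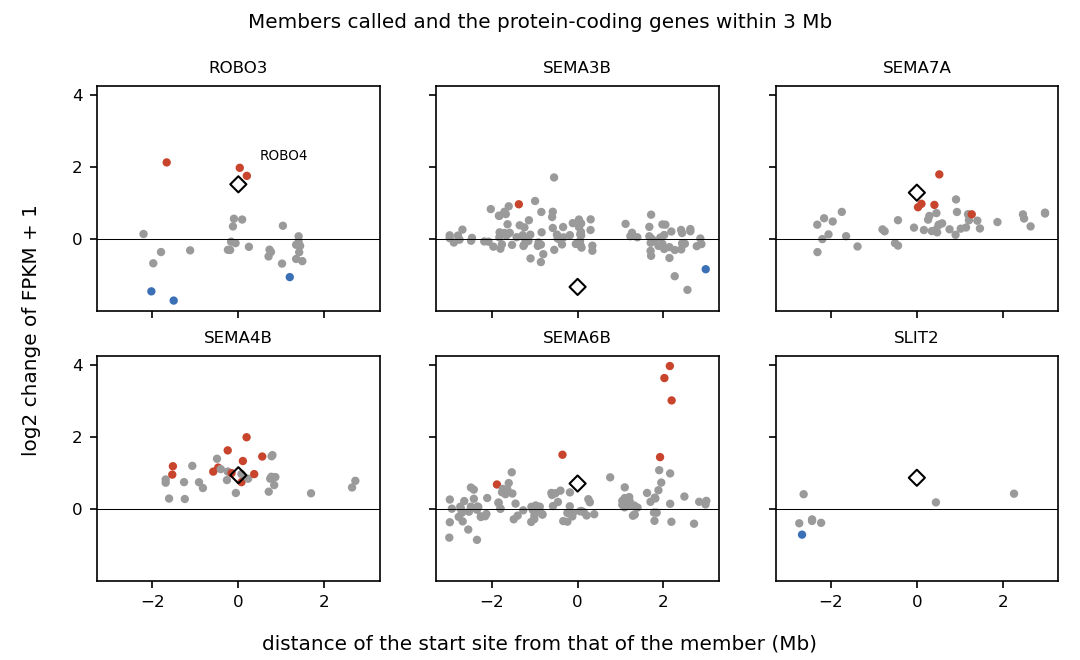
Log2 change of FPKM + 1 (vertical axis) of the protein-coding genes tested within 3 Mb of 6 members called, against the distance between start sites in Mb (horizontal axis), with the member as an open diamond at 0 and called genes in red (higher) or blue (lower). Around SEMA4B all 36 points lie above 0, and around SEMA3B the member lies below most points. Within 1 Mb of ROBO3 the genes called are ROBO4 and SLC37A2, and further out some are called in each direction.

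Plexins are the receptors of semaphorins, with a cytoplasmic domain that turns off small GTPases of the Ras family. Of 9 plexin genes, 8 were tested and none was called, beside 9.27% of all genes tested. PLXND1, the receptor of Sema3E in vessels, had the largest change of them. It was at 43.9 FPKM in MDA-MB-231 (bounds 24.1 to 63.7) and at 19.6 FPKM in LM2-4175 (10.7 to 28.5), a log2 change of -1.12, with bounds that overlapped. PLXNB1, the receptor of Sema4D, passed the fold the other way with 2.76 FPKM in MDA-MB-231 (1.29 to 4.23) against 4.90 FPKM in LM2-4175 (2.43 to 7.37) and a log2 change of 0.65, and its bounds overlapped too. For these ligand and receptor pairs, SEMA4D had the lower value and PLXNB1 the higher value in LM2-4175, while PLXND1 had the lower value and SEMA3E differed by less than its bounds.

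PLXNB2, which binds class 4 semaphorins, was the highest plexin in both cell lines. It was at 51.3 FPKM in MDA-MB-231 (30.4 to 72.1) against 45.9 FPKM in LM2-4175 (33.8 to 58.05), a log2 change of -0.16. PLXNA1, which pairs with neuropilins, was at 34.01 FPKM in MDA-MB-231 (25.8 to 42.2) against 32.5 FPKM in LM2-4175 (22.8 to 42.1) (-0.07 on the log2 scale, and 0.01 after scaling both cell lines to the same sum). PLXND1 came second in MDA-MB-231 and after PLXNA1 in LM2-4175, and the bounds of neighbours in the order overlapped among the first 3 in each cell line. PLXNA3, which with neuropilin-2 reads Sema3F, was at 14.6 FPKM in MDA-MB-231 (5.19 to 23.9) against 14.7 FPKM in LM2-4175 (6.94 to 22.5) (0.01), and PLXNA2 was at 3.91 FPKM in MDA-MB-231 (2.46 to 5.36) against 4.42 FPKM in LM2-4175 (0.865 to 7.97) (0.14). PLXNB3, a receptor of Sema5A, was at 4.52 FPKM in MDA-MB-231 (1.84 to 7.198) against 4.75 FPKM in LM2-4175 (1.98 to 7.53), a log2 change of 0.06. The log2 changes of the 6 plexins other than PLXND1 and PLXNB1 lay between -0.16 and 0.14. Summed plexin FPKM was 157 and 129.

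**Figure D4:**
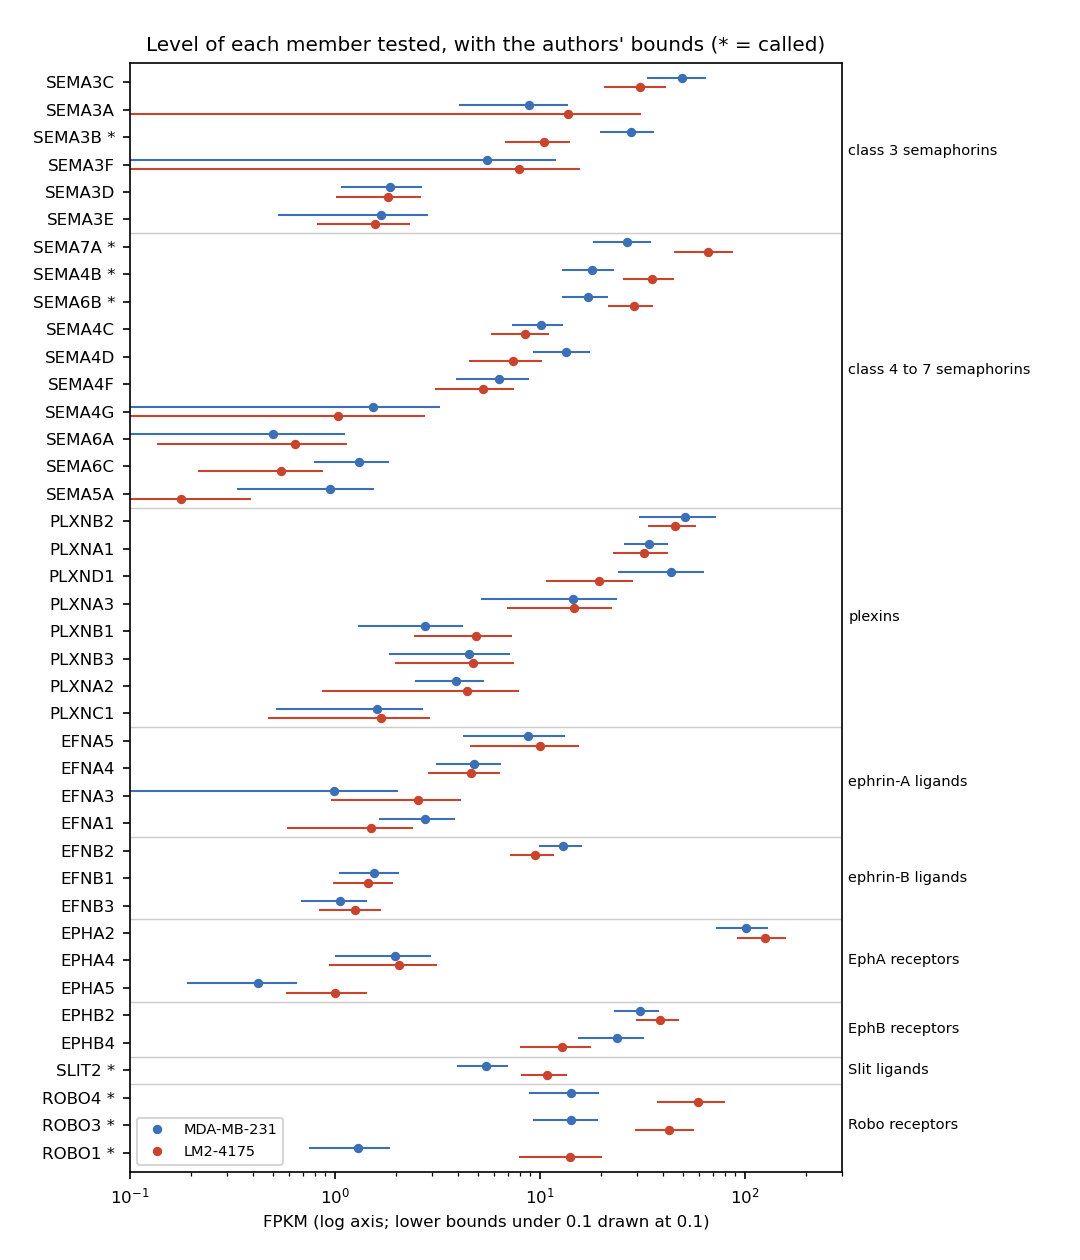
FPKM (horizontal log axis) of each member tested, in MDA-MB-231 (blue) and LM2-4175 (red), with lines from the authors' lower to upper bound and an asterisk for a member called. EPHA2 stands highest at 101 and 125 FPKM, the red and blue lines of ROBO1, ROBO3 and ROBO4 do not overlap, and those of the plexins, ephrins and Eph receptors do.

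The co-receptors listed are neuropilins and other partners of semaphorins or plexins. Of 17 listed, 10 were tested and 1 was called, beside 9.27% of all genes tested. That gene was KDR, a receptor of vascular endothelial growth factor, which was higher at 0.971 FPKM in MDA-MB-231 (0.634 to 1.31) against 2.48 FPKM in LM2-4175 (1.78 to 3.19). NRP1, the neuropilin that Sema3A needs, was at 122 FPKM in MDA-MB-231 (bounds 47.5 to 197) and at 214 FPKM in LM2-4175 (107 to 320.4), a log2 change of 0.80 with bounds that overlapped. NRP2, a neuropilin that binds Sema3F and Sema3B, was at 11.9 FPKM in MDA-MB-231 (bounds 7.39 to 16.3) and at 5.24 FPKM in LM2-4175 (2.35 to 8.12). Its log2 change was -1.04, with bounds that overlapped as well. NRP1 exceeded NRP2 by 10.3 times in MDA-MB-231 and by 40.8 times in LM2-4175.

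Of 20 plexin transducers, 16 were tested and 1 was called, beside 9.27% of all genes tested. That gene was RHOD, a small GTPase that acts on plexin A1, which was lower at 18.5 FPKM in MDA-MB-231 (13.4 to 23.6) against 6.88 FPKM in LM2-4175 (4.71 to 9.05), a log2 change of -1.31. MICAL2, of the family of actin oxidases that act after plexins, was at 171 and 164 FPKM, and RRAS, a GTPase that plexins turn off, was at 59.98 and 58.3 FPKM in MDA-MB-231 and LM2-4175, neither of them called. The median of the 16 genes was -0.11.

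Among ephrins and Eph receptors, 12 genes were tested and none was called, beside 9.27% of all genes tested. EPHA2, the receptor most often linked to migrating breast cancer cells, was the highest of all 58 members in both cell lines. It was at 101 FPKM in MDA-MB-231 (bounds 72.2 to 130) and at 125 FPKM in LM2-4175 (91.7 to 159), above 92.7% and 94.8% of the genes tested, and its log2 change was 0.31 with bounds that overlapped. It made up 97.4% and 97.1% of the summed FPKM of the 9 EphA genes. EPHA4, which binds ephrins of both classes, was at 1.98 FPKM in MDA-MB-231 (1.004 to 2.95) against 2.06 FPKM in LM2-4175 (0.942 to 3.17), a log2 change of 0.04. EPHA5, low in both cell lines, was at 0.422 FPKM in MDA-MB-231 (0.191 to 0.652) against 1.01 FPKM in LM2-4175 (0.579 to 1.44), a ratio of 2.39 that came to 0.50 on the log2 scale of FPKM + 1.

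The ephrin-A ligands that bind EPHA2 were lower in level, with bounds apart from its own. EFNA5 was the highest at 8.80 FPKM in MDA-MB-231 (4.25 to 13.3) against 10.1 FPKM in LM2-4175 (4.60 to 15.6), a log2 change of 0.18. EFNA4 followed at 4.79 FPKM in MDA-MB-231 (3.11 to 6.48) against 4.65 FPKM in LM2-4175 (2.86 to 6.43), with -0.04 on the log2 scale and 0.03 after scaling to the same sum. EFNA1, the ephrin with the closest tie to EPHA2, was at 2.76 FPKM in MDA-MB-231 (1.65 to 3.86) against 1.51 FPKM in LM2-4175 (0.589 to 2.42), a log2 change of -0.58, just short of the fold. EFNA3 was at 0.999 FPKM in MDA-MB-231 (0 to 2.04) against 2.56 FPKM in LM2-4175 (0.958 to 4.15), past the fold at 0.83 with overlapping bounds. EFNA4, EFNA3 and EFNA1 lie in this order on chromosome 1 between 155036213 and 155107375, all on the plus strand, and showed no common direction. The second row of the symbol EFNA3, for the read-through gene, was near 0 in both cell lines. Of the exon bases of EFNA3, 43.9% are shared with that gene, so the counting could split their reads.

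EPHB2 and EPHB4 were the EphB receptors tested. EPHB4, which with ephrin-B2 tells veins from arteries, was at 23.8 FPKM in MDA-MB-231 (bounds 15.4 to 32.2) and at 12.9 FPKM in LM2-4175 (8.05 to 17.8), past the fold at -0.84, with bounds that overlapped. EPHB2 was at 30.8 FPKM in MDA-MB-231 (bounds 23.2 to 38.4) and at 38.8 FPKM in LM2-4175 (29.6 to 48.03), a log2 change of 0.33. EPHB2 stood at 1.29 times EPHB4 in MDA-MB-231, with overlapping bounds, and at 3.01 times in LM2-4175, with bounds apart. Its share of the summed EphB FPKM was 55.2% and 74.7%. In the 1 Mb around EPHB4, 38 coding genes were tested and 32 of them had a lower value in LM2-4175, 3 were called lower and 1 higher, and the median was -0.30. Over all genes tested, 45.5% had a higher value, 4.61% were called lower and 4.67% higher.

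EFNB2, the ligand of EPHB4, was at 13.04 FPKM in MDA-MB-231 (9.94 to 16.1) against 9.49 FPKM in LM2-4175 (7.19 to 11.8), a log2 change of -0.42, and 36.4% of its exon bases overlap a non-coding gene on the other strand. EPHB4 was higher than EFNB2 by 1.83 times in MDA-MB-231 and 1.36 times in LM2-4175, with overlapping bounds in each. EFNB1 was at 1.55 FPKM in MDA-MB-231 (1.05 to 2.05) against 1.45 FPKM in LM2-4175 (0.979 to 1.93) (-0.06 on the log2 scale) and EFNB3 at 1.06 FPKM in MDA-MB-231 (0.684 to 1.43) against 1.26 FPKM in LM2-4175 (0.837 to 1.69) (0.14), both low and with overlapping bounds.

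Of 28 transducers of Eph receptors and ephrins listed, 23 were tested and 2 were called, both lower. Of all genes tested, 9.27% were called in either direction and 4.61% lower. VAV2, an exchange factor that drives the uptake of ephrin and Eph complexes, was at 23.9 FPKM in MDA-MB-231 (18.4 to 29.4) against 12.4 FPKM in LM2-4175 (9.42 to 15.4), a log2 change of -0.89. NCK2, an adaptor that binds phosphorylated ephrin-B and Eph receptors, was at 23.8 FPKM in MDA-MB-231 (15.4 to 32.2) against 11.6 FPKM in LM2-4175 (7.85 to 15.3), a log2 change of -0.98. Its relative NCK1 was at 19.9 and 24.9 FPKM and was not called. The symbol GRB4, an older name of NCK2, had no row of its own.

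Of the proteases and proteoglycans that act on these ligands and receptors, all 7 were tested and 2 were called, both lower. Of all genes tested, 9.27% were called in either direction and 4.61% lower. Beside GPC1, the gene called was ADAM10, the protease that cuts ephrins after they have bound an Eph receptor and so lets the cells part. ADAM10 was at 79.4 FPKM in MDA-MB-231 (57.9 to 101) against 37.7 FPKM in LM2-4175 (27.4 to 47.99), a log2 change of -1.06. MMP14, the membrane protease that can cut EphA2, was at 141 FPKM in MDA-MB-231 (107 to 175) against 215 FPKM in LM2-4175 (162 to 269), past the fold with overlapping bounds, and FURIN, which processes class 3 semaphorins, was at 32.9 and 46.3 FPKM. Over all roles, 71 of 104 other pathway genes were tested, and 3 were called higher and 5 lower. Of all genes tested, 4.67% were called higher and 4.61% lower. The median log2 change of the 71 pathway genes was -0.06.

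**Figure D5:**
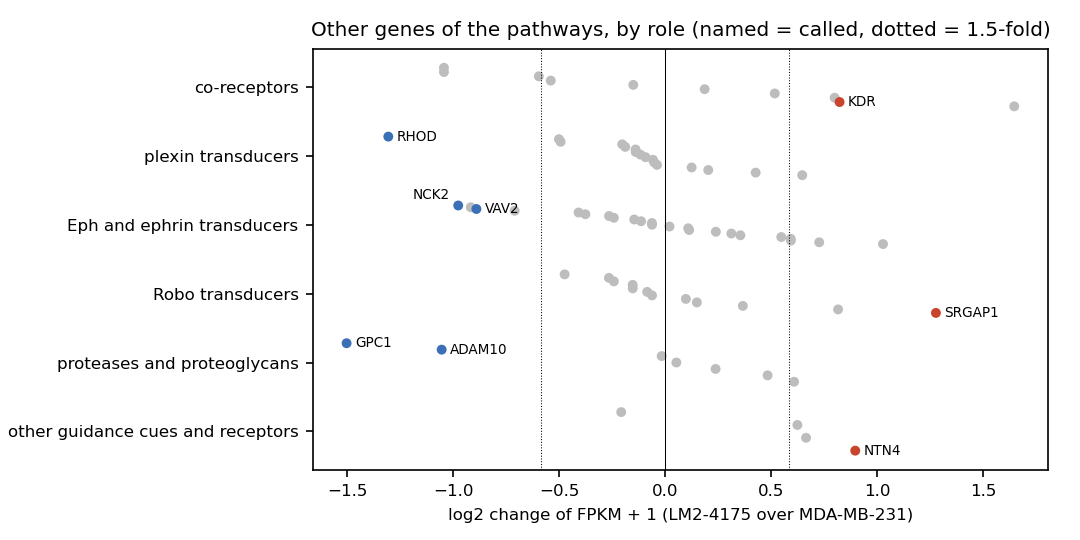
Log2 change of FPKM + 1 (LM2-4175 over MDA-MB-231, horizontal axis) of the 71 other pathway genes tested, by role, 1 point per gene in each role, with dotted lines at 1.5-fold and the 8 genes called named (red higher, blue lower). SRGAP1 among the Robo transducers lies furthest right of the genes called and GPC1 furthest left.

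The remaining 19 rows lay under the filter on mean FPKM and carried no call. Among semaphorins they were SEMA3G (0.421 and 0.397 FPKM in MDA-MB-231 and LM2-4175), SEMA6D (0.188 and 0.338 FPKM), SEMA4A (0.0896 and 0.112 FPKM) and SEMA5B (0.0256 and 7.81e-05 FPKM). PLXNA4 was at 0.528 and 0.295 FPKM. In the Eph and ephrin families they were EFNA2, the second EFNA3 row, EPHA1, EPHA3, EPHA6, EPHA7, EPHA8, EPHA10, EPHB1, EPHB3 and EPHB6, and in the Slit and Robo families SLIT1, SLIT3 and ROBO2. EPHA8 was listed at 0 in both cell lines. EPHB3, with 0.873 FPKM in MDA-MB-231 (0 to 15.2) against 0.102 FPKM in LM2-4175 (0 to 2.09), had a bound far above its value in MDA-MB-231, so that its level there is not set by these data. EPHA6 was at 0.0255 FPKM in MDA-MB-231 (0 to 0.149) against 0.388 FPKM in LM2-4175 (0 to 0.788). The other Eph receptors under the filter were at or below 0.216 FPKM in both cell lines.

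The labelled cell type was set against its markers. VIM was at 1355 and 1768 FPKM in MDA-MB-231 and LM2-4175, ESR1 at 0.0331 and 0.0186 FPKM and PGR at 0.0124 and 0.00438 FPKM, and CAV1 was the only one of 5 mesenchymal markers called, lower at 587 and 151 FPKM. Of 8 luminal or epithelial markers, 6 were tested and 3 were called lower, the keratins KRT8 (626 and 180.2 FPKM) and KRT18 (448 and 181 FPKM) and the adhesion protein EPCAM (12.3 and 4.93 FPKM), which were thus present in both cell lines. ERBB2 was at 34.95 and 22.8 FPKM, GATA3 at 3.10 and 2.42 FPKM and CDH1 at 0.851 and 0.366 FPKM, none of them called. Of all genes tested, 9.27% were called in either direction and 4.61% lower.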

How the data were processed

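Total RNA of both cell lines was sequenced by the authors as paired reads, aligned to hg19 with TopHat2 and quantified on GENCODE genes with Cufflinks and Cuffdiff. The deposited FPKM values, their bounds and their status were used as they stand. Library normalization and the strand setting in counting were not given in the sources used here. The study states aligned read pairs per library in its supplement, which were not used here, and the table gives no depth. The authors pooled the libraries within each cell line, so the planned fit per library was not possible and no p-value was computed.

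A pseudocount of 1, a mean FPKM of at least 0.5 and a fold of 1.5 were applied to all 57815 rows, of which 8 had a status other than OK, and 13911 were tested. Genes were placed with GENCODE 44 on GRCh37 by gene ID, and all 59 member rows matched. Neighbours are protein-coding genes tested, by distance of start sites, within 1 Mb or 3 Mb. Promoters were taken from RefSeq, matched by symbol for 53 of 58 members. Protein sequences were not analysed here.

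Every member tested is named with FPKM, bounds and log2 change, and at most 5 other genes per role of the pathway lists. The members, lists and rules were chosen with earlier results of these data known. Alternatives covered the pseudocount, the filter, the fold, the use of the bounds and the scaling. Python 3.11.15, NumPy 2.4.6, pandas 2.3.3 and Matplotlib 3.10.9 were used.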

Additional observations from a re-analysis of the deposited data

How the results depend on the processing

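The counts of members, 7 higher and 1 lower, were the same with a pseudocount of 0.1, without a filter, with a mean FPKM of at least 1 or 5, after scaling both cell lines to the same sum of FPKM and after centring on the median of all genes tested. With a fold of 2, 4 members were higher, without SLIT2, SEMA6B and SEMA4B, and of all 13911 genes tested 450 were higher and 403 lower. With the fold alone, 6 members were lower, and over all genes 1434 were higher and 1640 lower. With the difference set against its standard error in place of separate bounds, with the gap between FPKM and upper bound counted as 2 standard errors, 5 members were lower, PLXND1, EPHB4, SEMA4D and SEMA5A being added, and 1090 of all genes were lower. With a mean FPKM of at least 5, 321 of all genes were higher, of 9519 tested. Each of these follows from a stricter or looser rule or from fewer genes tested. Over all genes, 649 higher and 641 lower became 735 and 547 after scaling both cell lines to the same sum of FPKM. That scaling shifted log2 values by 0.08. It turned the sign of PLXNA1, SEMA3D and EFNA4, and centring turned that of SEMA3D and EFNA4, all within 0.07 of 0 in either case. No paired analysis was possible because the table holds 1 value per cell line, and for the same reason no library could be left out. Low members are limited by their bounds, which reach 0 for many of them.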

Other observations

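The other guidance cues and receptors, which belong to none of the families above, were mostly low in level. Of 20 listed, 16 lay under the filter, and 4 were tested and 1 was called, beside 9.27% of all genes tested. NTN4, a netrin of basement membranes, was called higher in LM2-4175 at 5.99 FPKM in MDA-MB-231 (4.34 to 7.65) against 12.01 FPKM in LM2-4175 (8.74 to 15.3), a log2 change of 0.90. RGMB, a co-receptor of bone morphogenetic proteins that also binds neogenin, was at 23.1 FPKM in MDA-MB-231 (15.8 to 30.4) against 36.1 FPKM in LM2-4175 (27.1 to 45.01), and FLRT2, a ligand of the netrin receptors of the Unc5 family, at 4.76 FPKM in MDA-MB-231 (2.14 to 7.39) against 8.13 FPKM in LM2-4175 (4.36 to 11.9). Both passed the fold with bounds that overlapped. NEO1, which codes for neogenin, was at 4.13 and 3.44 FPKM in MDA-MB-231 and LM2-4175, not called. UNC5B, a netrin receptor, lay under the filter and carried no call. It was at 0.431 FPKM in MDA-MB-231 (0.271 to 0.592) against 0.0740 FPKM in LM2-4175 (0.0289 to 0.119), with bounds apart.

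Markers of other cells, which bear on receptors known from vessels, nerve and stroma, were as follows. Of the white blood cell markers, PTPRC was at 0.0767 and 0.0263 FPKM in MDA-MB-231 and LM2-4175, CD3E was listed at 0 in both, LYZ was at 0.448 and 0.160 FPKM, and CD14, which passed the filter, was at 1.17 FPKM in MDA-MB-231 (0.626 to 1.72) against 1.75 FPKM in LM2-4175 (1.08 to 2.42) and was not called. Of 5 fibroblast markers, 3 were tested, COL1A1 was called higher (3.16 and 30.98 FPKM), and LUM (1.34 and 0.178 FPKM) and PDGFRB (9.44 and 1.91 FPKM) were called lower. Of 5 markers of neurons and glia, 4 were tested and only SNAP25 was called, higher (0.354 and 3.09 FPKM). For these counts, 4.67% of all genes tested were called higher and 4.61% lower. The sum of the 5 markers of neurons and glia was 8.59 and 9.28 FPKM. Its largest part was GFAP, at 5.45 FPKM in MDA-MB-231 (0 to 17.1) against 3.65 FPKM in LM2-4175 (0 to 12.3). Those bounds reach 0, so the sum is not well set.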
